A study of Rattus norvegicus with 24 samples.

Results

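Dual-specificity phosphatases and Sprouty proteins are inhibitors that restrain MAP kinase signalling, and the RNA of 10 of their genes was followed here in a rat insulin-secreting cell line given the hormone GLP-1 or the compound BMS-21. The genes were taken by symbol: Dusp1, Dusp4, Dusp5, Dusp6, Dusp8, Dusp10, Dusp14, Spry1, Spry2 and Spry4, which are 10 of the 26404 genes in the deposited tables, and each of the 10 matched 1 identifier. The cells, INS-1, derive from a rat insulinoma, release insulin when glucose rises, and stand in here for the pancreatic beta cell. Cells were held for 90 min in medium with 3 mM glucose, moved to medium with 11 mM glucose, and then given GLP-1 at 100 nM, BMS-21 at 1 µM or Control, which was DMSO vehicle. RNA was taken at 1 h or 6 h, with 4 libraries for each of the 6 combinations of treatment and time, so every group, Control included, also went through the change from 3 mM to 11 mM glucose. The labels do not say whether the 4 replicates came from separate cultures, so the p-values measure the spread between these libraries only.

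As background, MAP kinases pass signals from receptors to the nucleus when a threonine and a tyrosine in their activation loop carry phosphate. A dual-specificity phosphatase (DUSP) removes both phosphates and so switches the kinase off, and members of the family differ in where in the cell they sit and in whether they prefer ERK, JNK or p38. Sprouty proteins act further up, between the receptor and Ras-Raf-ERK. Many of these genes are themselves switched on by the kinases they restrain, and GLP-1, which raises cyclic AMP in beta cells, can also bring about ERK activation there.

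Every member was measured well enough to be tested in every comparison. Libraries held 10667350 to 13148970 reads assigned to genes, and a member had between 27 reads (Dusp14) and 3145 reads (Dusp1) in a library. Levels below are reads per 1000000 (RPM) on 1 scale for all 24 libraries, in the order of replicates 1, 2, 3 and 4. Gene lengths were not used, so levels are compared between groups for a gene and not between genes. Changes from Control at 1 time are log2 differences of the normalised read count plus 1 with their standard error, tested with limma over all genes of the table, and called where the Benjamini-Hochberg adjusted p was under 0.05. The 9 of 10 listed beta-cell markers found in the tables summed to 15559 to 16679.6 RPM in Control, 16169 to 16756 RPM with GLP-1 and 16809 to 17593 RPM with BMS-21 at 1 h. At 6 h the sums were 15294 to 16111, 16330.1 to 17470.2 and 16662 to 19407 RPM, so both agent groups lay above Control without overlap. Of these 9 markers limma called 3 higher with GLP-1 and 4 with BMS-21 at 1 h, against 4.17% and 3.54% of all genes. At 6 h it called 4 and 5 higher, against 16.2% and 16.8%, and 2 lower with each, against 15.6% and 16.8%. Ins1 had the most reads of the 9, a mean of 118072 per library, followed by Iapp with 43422, so these genes weigh most in the sums. The 14 markers of other cell types summed to 10.1 to 13.2 RPM in Control at 1 h, 13.0 to 16.5 RPM with GLP-1 at 1 h, and 15.1 to 15.9 RPM with BMS-21 at 1 h, then 11.4 to 13.3, 13.6 to 14.5 and 13.6 to 18.8 RPM at 6 h. Of these 14, the exocrine gene Cela1 was at 0 reads in all 24 libraries, and Sst, Ppy, Cpa1, Krt19 and Ptprc never passed 1 read. Gcg, the glucagon gene, had 78 to 185 reads, Ghrl, the ghrelin gene, 12 to 30 and Sox9, a duct and progenitor factor, 13 to 64, and these 3 had enough reads to be tested. Sox9 was higher at 1 h with GLP-1 (1.09 ± 0.26 log2; limma adjusted p = 0.0152) and BMS-21 (0.89 ± 0.22; limma adjusted p = 0.0137), and Gcg was higher at 6 h with BMS-21 (0.39 ± 0.13; limma adjusted p = 0.0226). The part of the 2 marker lists in the results below was not tested.

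The 250 bases before the annotated start of 5 members are given first, chosen to show the member with the strongest early rise (Dusp1), a second early member in which none of the searched motifs was found (Dusp10), a member that was higher at both times (Dusp5) and the pair that was higher than Control at 6 h only (Dusp6 and Spry2). They come from RefSeq promoters on build GRCr8, whereas the reads were aligned to Rnor_5.0. Capitals mark matches on either strand to any of 5 motifs: the cyclic AMP response element TGACGTCA, its core TGACG (which lies inside the full element), the AP-1 site TGANTCA, the ETS site CCGGAA and the SRF CArG box.
Dusp1 (chr10:17184603-17184852, + strand): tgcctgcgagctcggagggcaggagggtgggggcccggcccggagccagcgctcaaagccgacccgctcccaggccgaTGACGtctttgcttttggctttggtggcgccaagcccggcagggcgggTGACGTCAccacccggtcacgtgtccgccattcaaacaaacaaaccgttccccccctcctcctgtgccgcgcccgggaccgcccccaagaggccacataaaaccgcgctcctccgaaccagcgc
Dusp10 (chr13:98145643-98145892, + strand): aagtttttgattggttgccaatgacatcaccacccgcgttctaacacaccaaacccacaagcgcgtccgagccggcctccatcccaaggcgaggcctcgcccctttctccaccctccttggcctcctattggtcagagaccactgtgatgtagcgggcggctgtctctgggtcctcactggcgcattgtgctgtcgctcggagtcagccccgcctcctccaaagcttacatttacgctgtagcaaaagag
Dusp5 (chr1:262543524-262543773, + strand): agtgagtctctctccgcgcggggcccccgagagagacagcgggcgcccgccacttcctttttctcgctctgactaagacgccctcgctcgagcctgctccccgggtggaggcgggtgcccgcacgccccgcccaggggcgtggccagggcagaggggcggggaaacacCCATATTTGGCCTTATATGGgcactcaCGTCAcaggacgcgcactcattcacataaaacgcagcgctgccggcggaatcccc
Dusp6 (chr7:35979354-35979603, + strand): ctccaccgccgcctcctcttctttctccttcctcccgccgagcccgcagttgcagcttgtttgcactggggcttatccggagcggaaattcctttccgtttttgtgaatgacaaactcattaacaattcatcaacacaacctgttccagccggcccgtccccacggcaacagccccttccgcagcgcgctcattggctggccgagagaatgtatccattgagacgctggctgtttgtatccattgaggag
Spry2 (chr15:89111927-89112176, - strand): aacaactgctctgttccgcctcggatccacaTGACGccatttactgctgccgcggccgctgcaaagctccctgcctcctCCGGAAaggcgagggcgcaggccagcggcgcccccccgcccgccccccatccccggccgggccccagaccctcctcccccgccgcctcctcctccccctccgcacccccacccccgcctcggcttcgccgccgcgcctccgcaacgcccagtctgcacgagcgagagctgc

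Windows of 300 bases, from 250 before to 50 after a start, were found for 9 of the 10 members, Dusp4 being the member not in the table. The full cyclic AMP response element was in the windows of 1 of 9 members, Dusp1, where its first base lies 124 bases before the start, and in 1.83% of the 33469 windows of all genes. The core TGACG was in 4 of 9 members (Dusp1, Dusp5, Dusp14 and Spry2) against 21.2% of windows. The ETS site was in 4 of 9 (Dusp5, Dusp14, Spry2 and Spry4) against 15.0% of windows, and in Dusp5 it lies after the start and so outside the bases shown. Dusp5 alone of the 9 held the SRF CArG box, at 2 sites that follow each other 82 and 72 bases before the start, against 1.64% of windows. The AP-1 site was in 1 of 9 (Dusp14, in a window of a further start) against 7.33% of windows. A member can have more than 1 window, and 12 windows were searched for the 9 members. A match is a run of letters, not a measured binding site, and the windows of Dusp6, Dusp8, Dusp10 and Spry1 held none of the 5.

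At 1 h, 7 members were higher with GLP-1 than in Control (Dusp1, Dusp10, Spry1, Spry4, Dusp4, Dusp8 and Dusp5) and 2 were lower (Spry2 and Dusp14), while Dusp6 was not called. Over all 12715 genes tested, 4.17% were called higher and 2.41% lower. BMS-21 gave the same 7 calls higher, against 3.54% of 12697 genes, and 1 call lower (Spry2), against 2.37%. The 4 GLP-1 libraries did not overlap the 4 Control libraries for 9 of the 10 members, against 11.0% of all genes, and the BMS-21 libraries did not for 8, against 10.7%. The median log2 change of the 10 members was 0.48 with GLP-1 and 0.37 with BMS-21, and that of all genes tested was -0.00151 and 0.000555. Both comparisons use the same 4 Control libraries. Of all genes called, 63.3% were higher with GLP-1 and 59.9% with BMS-21, and with scaling to library totals 47.0% and 46.1% were, while no member call at 1 h changed.

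At 6 h, 8 members were higher with GLP-1 (Spry1, Dusp6, Dusp4, Spry4, Dusp5, Dusp1, Spry2 and Dusp10), against 16.2% of the 12641 genes tested, and none was lower, against 15.6%. With BMS-21, 7 were higher (the same without Dusp10), against 16.8% of 12640 genes, and none was lower, against 16.8%. No member was lower at 6 h at an unadjusted p under 0.05 with limma, against 20.7% of genes with GLP-1 and 21.6% with BMS-21, and edgeR and DESeq2 called none lower either. Groups did not overlap for 7 of 10 members with GLP-1, against 30.6% of all genes, and for 7 with BMS-21, against 32.1%. The median log2 change of the members was 0.48 with GLP-1 and 0.59 with BMS-21, beside -0.000655 and -0.00150 for all genes tested. Of all genes called at 6 h, 51.0% were higher with GLP-1 and 50.0% with BMS-21, and with scaling to library totals 32.9% and 33.0% were, a setting in which Dusp10 with GLP-1 was no longer called (limma adjusted p = 0.0885). Taking as early a member that was higher at 1 h, and as late a member that was higher at 6 h and not at 1 h, 7 members were early with either agent, 2 were late (Dusp6 and Spry2) and 1 was neither (Dusp14). In the authors' deposited tables, 8 members pass an adjusted p of 0.05 at 1 h with each agent against Control, beside 5.12% of genes with GLP-1 and 5.14% with BMS-21. In the same deposited tables of the authors, 7 pass at 6 h with each agent, beside 24.4% and 28.8%.

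**Figure D1:**
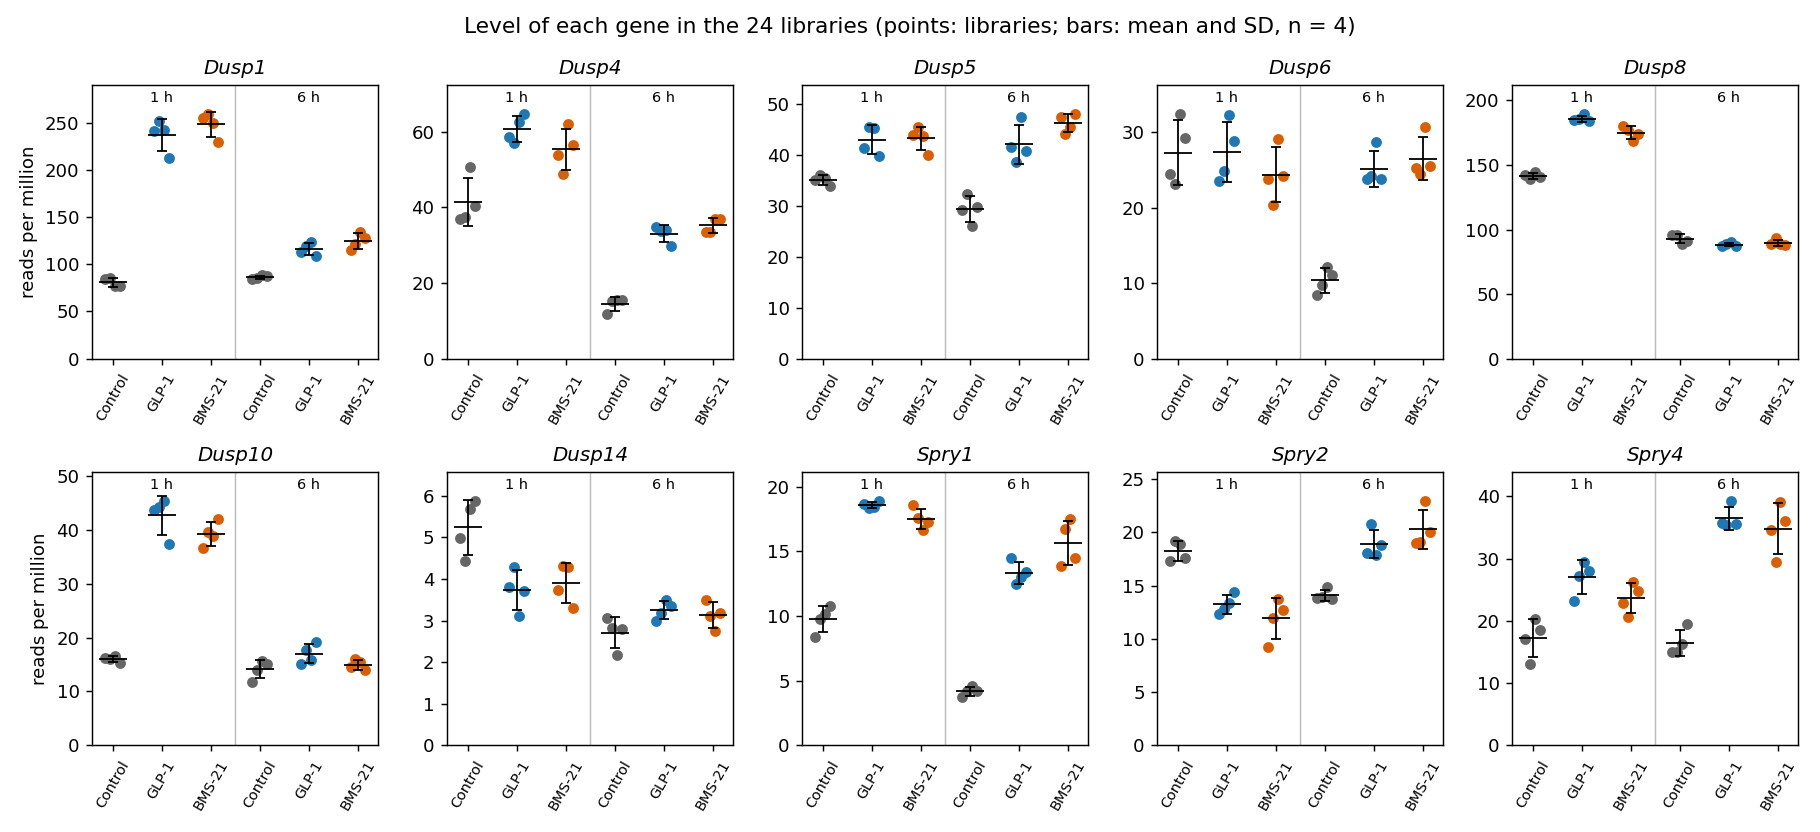
Level of each of the 10 genes in RPM (vertical axes, linear and starting at 0) in the 6 groups; points are libraries and bars are the mean and SD of 4. Dusp1 and Dusp10 are high in the agent groups at 1 h, whereas Dusp6 is lowest in Control at 6 h, at 8.39 to 12.2 RPM.

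The nuclear phosphatases included the member with the largest change at 1 h. DUSP1 is a nuclear phosphatase that acts on p38, JNK and ERK and is a classic immediate-early gene product. Dusp1 stood at 84.9, 85.3, 77.1 and 76.6 RPM in Control at 1 h. With GLP-1 at 1 h it stood at 241, 252, 243 and 213 RPM. With BMS-21 at 1 h it stood at 255, 259, 249.9 and 229.8 RPM. All 8 agent libraries lay above all 4 Control libraries, by 1.55 ± 0.05 on the log2 scale with GLP-1 (2.93-fold; limma adjusted p = 2.66e-17) and 1.62 ± 0.05 with BMS-21 (3.07-fold; limma adjusted p = 5.86e-18). At 6 h it was 84.6, 85.0, 88.3 and 87.2 RPM in Control, 113, 119, 124 and 109 RPM with GLP-1 and 115, 121, 134 and 127 RPM with BMS-21. The groups still did not overlap, but the gap was smaller, at 0.43 ± 0.04 with GLP-1 (limma adjusted p = 1.07e-07) and 0.53 ± 0.05 with BMS-21 (limma adjusted p = 6.66e-09).

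DUSP4, also nuclear, is an inducible phosphatase of ERK and JNK. Dusp4 was 37.1, 37.6, 50.8 and 40.5 RPM in Control at 1 h, 58.6, 57.2, 62.6 and 64.7 RPM with GLP-1 and 53.9, 49.0, 62.1 and 56.5 RPM with BMS-21. Every GLP-1 library was above every Control library, whereas the lowest BMS-21 library was below the highest Control library. The change was 0.56 ± 0.09 with GLP-1 (limma adjusted p = 5.01e-04) and 0.42 ± 0.10 with BMS-21 (limma adjusted p = 0.0283). The BMS-21 call was lost on leaving out Control replicate 1, 2 or 4 or BMS-21 replicate 1, 3 or 4 in turn, with limma adjusted p from 0.0529 to 0.0990. At 6 h the levels were 11.8, 15.3, 15.5 and 15.6 RPM in Control, 34.9, 33.8, 33.9 and 29.8 RPM with GLP-1 and 33.5, 33.6, 36.8 and 37.1 RPM with BMS-21. These groups did not overlap, and the changes were 1.19 ± 0.08 (2.28-fold; limma adjusted p = 8.08e-10) and 1.28 ± 0.08 (2.43-fold; limma adjusted p = 6.69e-11). The means of both agent groups at 6 h, 33.1 ± 2.23 and 35.2 ± 1.96 RPM (SD, n = 4), were nevertheless below that of Control at 1 h, 41.5 ± 6.41 RPM.

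DUSP5 is a nuclear phosphatase that acts on ERK. Dusp5 was 35.0, 36.0, 35.5 and 33.8 RPM in Control at 1 h, 41.3, 45.4, 45.3 and 39.8 RPM with GLP-1 and 43.8, 45.3, 43.6 and 40.0 RPM with BMS-21. Both agent groups were above Control without overlap, by 0.29 ± 0.06 (limma adjusted p = 0.00105) and 0.30 ± 0.06 (limma adjusted p = 8.64e-04). Its 6 h levels were 29.1, 32.3, 26.0 and 29.7 RPM in Control, 41.6, 38.5, 47.4 and 40.7 RPM with GLP-1 and 47.3, 44.0, 45.4 and 47.9 RPM with BMS-21. Again neither agent group overlapped Control, and the changes were 0.52 ± 0.07 (limma adjusted p = 6.65e-06) and 0.66 ± 0.06 (limma adjusted p = 3.93e-08).

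DUSP6 is the cytoplasmic phosphatase that is selective for ERK. Dusp6 was 24.5, 23.1, 32.4 and 29.2 RPM in Control at 1 h, 23.6, 24.9, 32.4 and 28.8 RPM with GLP-1 and 23.8, 20.3, 29.2 and 24.2 RPM with BMS-21. The 3 groups overlapped, and neither the GLP-1 change of 0.01 ± 0.12 (95% interval -0.25 to 0.27; limma adjusted p = 0.983) nor the BMS-21 change of -0.16 ± 0.12 (95% interval -0.42 to 0.10; limma adjusted p = 0.648) passed the test. By 6 h the levels were 8.39, 9.73, 12.2 and 11.1 RPM in Control, 23.9, 24.2, 28.8 and 23.8 RPM with GLP-1 and 25.3, 24.5, 30.8 and 25.5 RPM with BMS-21. All 8 agent libraries were above all 4 Control libraries, by 1.28 ± 0.10 (2.44-fold; limma adjusted p = 5.14e-09) and 1.36 ± 0.10 (2.56-fold; limma adjusted p = 2.70e-09). The agent libraries at 6 h overlapped Control at 1 h, so the gap at 6 h went with a low Control level there.

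DUSP8 and DUSP10 are phosphatases that prefer the stress kinases JNK and p38 over ERK. Dusp10 was 16.2, 16.0, 16.6 and 15.4 RPM in Control at 1 h, 43.7, 44.2, 45.3 and 37.4 RPM with GLP-1 and 36.7, 39.5, 38.9 and 41.9 RPM with BMS-21. The agent groups were far above Control, by 1.41 ± 0.07 (2.65-fold; limma adjusted p = 1.60e-14) and 1.29 ± 0.07 (2.44-fold; limma adjusted p = 5.61e-13). Levels at 6 h were 11.8, 14.0, 15.6 and 15.2 RPM in Control, 15.2, 17.7, 15.9 and 19.1 RPM with GLP-1 and 14.5, 16.0, 15.4 and 13.9 RPM with BMS-21. All 3 groups overlapped at 6 h, with a GLP-1 change of 0.27 ± 0.09 (limma adjusted p = 0.0364) and a BMS-21 change of 0.08 ± 0.09 (95% interval -0.10 to 0.27; limma adjusted p = 0.513). The GLP-1 call at 6 h was lost on leaving out Control replicate 1 or 2 or GLP-1 replicate 2 or 4, with limma adjusted p from 0.0665 to 0.149, and with DESeq2 (adjusted p = 0.0783).

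Dusp8 moved less but with little spread. It was 142, 139, 144 and 141 RPM in Control at 1 h, 185, 185, 189 and 184 RPM with GLP-1 and 180.0, 177, 169 and 174 RPM with BMS-21. No agent library overlapped Control, and the changes were 0.40 ± 0.04 (limma adjusted p = 3.79e-09) and 0.31 ± 0.04 (limma adjusted p = 2.61e-06). At 6 h it was 95.4, 96.1, 89.1 and 91.4 RPM in Control, 87.1, 88.6, 90.0 and 87.2 RPM with GLP-1 and 89.0, 93.2, 88.6 and 87.7 RPM with BMS-21. The 3 groups overlapped, with changes of -0.07 ± 0.04 (95% interval -0.16 to 0.01; limma adjusted p = 0.190) and -0.05 ± 0.04 (95% interval -0.14 to 0.04; limma adjusted p = 0.384). Scaling to library totals made the GLP-1 change at 6 h a call lower, at -0.12 (limma adjusted p = 0.0202).

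DUSP14 is a small atypical phosphatase that lacks the kinase-docking domain of the others. Dusp14 had the fewest reads of the members, 27 to 70 in a library. It was 4.98, 4.43, 5.68 and 5.87 RPM in Control at 1 h, 3.81, 4.28, 3.12 and 3.71 RPM with GLP-1 and 3.73, 4.31, 4.29 and 3.31 RPM with BMS-21. Both agent groups lay below Control without overlap, by -0.48 ± 0.14 (limma adjusted p = 0.0426) and -0.41 ± 0.14 (limma adjusted p = 0.110), and only the first passed the test. That call was lost on leaving out Control or GLP-1 replicate 1, 3 or 4 in turn, with limma adjusted p from 0.0712 to 0.141, and with DESeq2 (adjusted p = 0.198). Its 6 h levels were 3.05, 2.83, 2.18 and 2.78 RPM in Control, 2.98, 3.18, 3.49 and 3.35 RPM with GLP-1 and 3.48, 3.11, 2.74 and 3.19 RPM with BMS-21. Those groups overlapped and neither change was called, at 0.27 ± 0.16 (95% interval -0.06 to 0.59) and 0.21 ± 0.16 (95% interval -0.13 to 0.55).

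Among the Sprouty genes, which encode membrane-associated inhibitors of receptor tyrosine kinase signalling to Ras and ERK, Spry1 had the largest changes at 6 h. Spry1 was 8.41, 9.80, 10.2 and 10.8 RPM in Control at 1 h, 18.7, 18.4, 18.4 and 18.9 RPM with GLP-1 and 18.5, 17.6, 16.7 and 17.3 RPM with BMS-21. The groups were apart from Control by 0.93 ± 0.09 (1.90-fold; limma adjusted p = 1.06e-08) and 0.84 ± 0.09 (1.79-fold; limma adjusted p = 3.93e-07). By 6 h the levels were 3.74, 4.24, 4.61 and 4.18 RPM in Control, 14.5, 12.5, 13.0 and 13.4 RPM with GLP-1 and 13.9, 16.7, 17.5 and 14.5 RPM with BMS-21. Here the changes were 1.66 ± 0.10 (3.15-fold; limma adjusted p = 1.12e-10) and 1.88 ± 0.11 (3.67-fold; limma adjusted p = 1.05e-11), which put Spry1 at ranks 27 and 23 from the highest among the 12641 and 12640 genes tested. The agent levels at 6 h were below those at 1 h for GLP-1 without overlap, so the larger ratio at 6 h went with a Control level that had fallen from 9.79 ± 1.01 to 4.19 ± 0.36 RPM (mean ± SD, n = 4).

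Spry2 moved in opposite directions at the 2 times. It was 17.3, 19.2, 18.9 and 17.6 RPM in Control at 1 h, 12.4, 12.8, 13.3 and 14.4 RPM with GLP-1 and 9.27, 12.0, 13.7 and 12.7 RPM with BMS-21. All 8 agent libraries were below all 4 Control libraries, and Spry2 fell by 0.46 ± 0.08 with GLP-1 (limma adjusted p = 2.26e-04) and by 0.62 ± 0.10 with BMS-21 (limma adjusted p = 1.51e-04). Levels at 6 h were 13.8, 14.0, 14.9 and 13.8 RPM in Control, 18.1, 20.8, 17.9 and 18.8 RPM with GLP-1 and 19.0, 19.1, 22.9 and 20.0 RPM with BMS-21. Now all 8 agent libraries were above Control, by 0.42 ± 0.08 (limma adjusted p = 1.83e-04) and 0.52 ± 0.08 (limma adjusted p = 1.87e-05).

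Spry4 was 17.1, 13.1, 20.2 and 18.5 RPM in Control at 1 h, 23.2, 27.3, 29.5 and 28.1 RPM with GLP-1 and 22.8, 20.6, 26.2 and 24.9 RPM with BMS-21. Neither agent group overlapped Control, and the changes were 0.66 ± 0.12 (limma adjusted p = 0.00166) and 0.47 ± 0.12 (limma adjusted p = 0.0229). The BMS-21 call was lost on leaving out Control replicate 1 or BMS-21 replicate 1, 3 or 4 in turn, with limma adjusted p from 0.0556 to 0.0792. At 6 h it was 15.0, 15.0, 16.3 and 19.4 RPM in Control, 35.8, 35.4, 39.2 and 35.6 RPM with GLP-1 and 34.5, 29.5, 39.2 and 36.1 RPM with BMS-21. The agent groups stood above Control by 1.16 ± 0.08 (2.23-fold; limma adjusted p = 2.40e-10) and 1.08 ± 0.09 (2.11-fold; limma adjusted p = 1.05e-08).

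**Figure D2:**
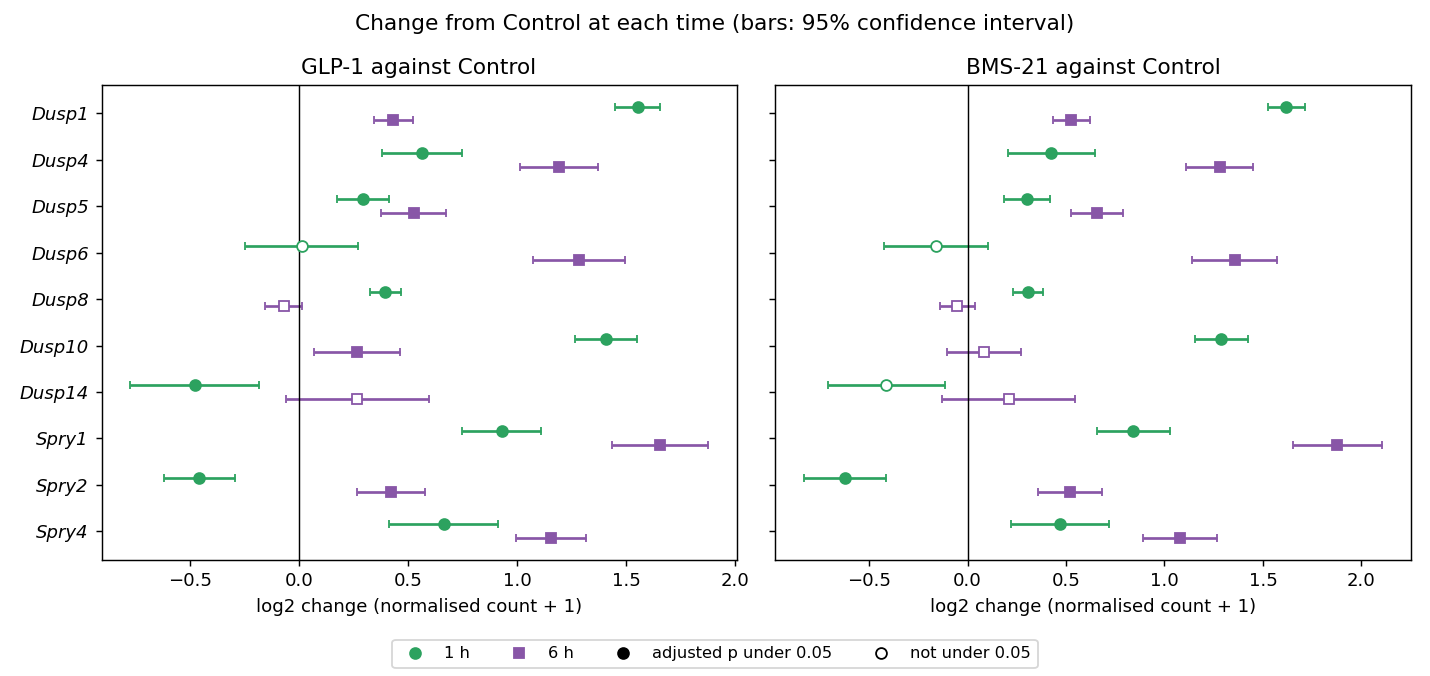
Log2 change from Control (horizontal axes) for GLP-1 and BMS-21 at 1 h (circles) and 6 h (squares), with 95% confidence intervals from limma; filled symbols have an adjusted p under 0.05. The 1 h value lies to the right of the 6 h value for Dusp1, Dusp8 and Dusp10, and to its left for the other 7 genes.

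Whether a response differed between the times was tested in 1 edgeR fit of the recovered reads of all 24 libraries, as the difference between the 6 h change and the 1 h change. For GLP-1, 6 members had a larger value at 6 h (Dusp6, Spry2, Dusp14, Spry1, Dusp4 and Spry4), against 8.3% of the 13114 genes tested, and 3 a smaller value (Dusp10, Dusp1 and Dusp8), against 9.01%. For BMS-21, 7 were larger, Dusp5 being added, against 10.8%, and the same 3 were smaller, against 10.9%. The largest positive difference was that of Dusp6, 1.28 ± 0.19 with GLP-1 (edgeR adjusted p = 3.85e-05) and 1.51 ± 0.19 with BMS-21 (edgeR adjusted p = 3.06e-06). Spry2, which went from lower to higher, differed by 0.88 ± 0.12 (edgeR adjusted p = 1.01e-06) and 1.13 ± 0.12 (edgeR adjusted p = 4.92e-09). On the other side, Dusp10 differed by -1.15 ± 0.12 (edgeR adjusted p = 9.99e-10) and -1.21 ± 0.12 (edgeR adjusted p = 3.48e-10), and Dusp1 by -1.12 ± 0.07 (edgeR adjusted p = 3.33e-13) and -1.09 ± 0.07 (edgeR adjusted p = 4.62e-13).

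The early members fell into those whose gap to Control shrank by 6 h and those whose gap grew. For Dusp8, the JNK and p38 phosphatase, the gap changed by -0.47 ± 0.05 with GLP-1 and -0.36 ± 0.05 with BMS-21 on the log2 scale, as it did in sign for Dusp1 and Dusp10. The gap of Spry1 grew by 0.74 ± 0.14 and 1.06 ± 0.14, and that of Dusp4 by 0.64 ± 0.13 and 0.86 ± 0.13. Over the same time the level of Dusp4 fell in Control and with each agent, and that of Spry1 fell in Control and with GLP-1. The gap of Spry4 grew by 0.50 ± 0.15 with GLP-1 (edgeR adjusted p = 0.0226) and 0.62 ± 0.16 with BMS-21 (edgeR adjusted p = 0.00442). The GLP-1 call for Spry4 was lost on leaving out Control 1 h replicate 3 or 4 or Control 6 h replicate 1 or 2, with edgeR adjusted p from 0.0534 to 0.0680. Dusp5 differed by 0.36 ± 0.09 with BMS-21 (edgeR adjusted p = 0.00319) and by 0.23 ± 0.09 with GLP-1 (edgeR adjusted p = 0.0736), and the GLP-1 value was called on leaving out Control or GLP-1 6 h replicate 2 (adjusted p = 0.0317 and 0.0359). Dusp14, with the fewest reads, differed by 0.74 ± 0.21 (edgeR adjusted p = 0.00906) and 0.63 ± 0.21 (edgeR adjusted p = 0.0250). The BMS-21 value of Dusp14 lost its call on leaving out Control 1 h replicate 3 or 4, Control 6 h replicate 3, BMS-21 1 h replicate 4 or BMS-21 6 h replicate 1 (edgeR adjusted p from 0.0514 to 0.0781).

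Control itself moved between the times. From 1 h to 6 h, 7 members fell in Control, against 26.9% of the 13114 genes, and none rose, against 26.0%. None was higher at an unadjusted p under 0.05 with edgeR, against 28.5% of genes, and DESeq2 called none higher. Dusp4 fell by 1.52 ± 0.10 (edgeR adjusted p = 4.09e-13), Dusp6 by 1.41 ± 0.14 (edgeR adjusted p = 1.84e-08) and Spry1 by 1.23 ± 0.11 (edgeR adjusted p = 6.18e-12). Dusp14 fell by 0.95, Dusp8 by 0.61, Spry2 by 0.38 and Dusp5 by 0.27 on the log2 scale. Dusp1, Dusp10 and Spry4 were not called in Control, at 0.09 ± 0.06, -0.19 ± 0.09 and -0.07 ± 0.12. Without Control 6 h replicate 3, Dusp10 was called lower (edgeR adjusted p = 0.0344). Time after the treatment and time after the glucose change run together in this design and cannot be told apart.

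The corresponding changes with the agents, from the same edgeR fit, were added after the data had been seen. With GLP-1, 2 members rose from 1 h to 6 h (Spry2 and Spry4), against 29.2% of genes, and 5 fell (Dusp1, Dusp4, Dusp8, Dusp10 and Spry1), against 30.0%. With BMS-21 the same 2 rose, against 30.1%, and 4 fell (Dusp1, Dusp4, Dusp8 and Dusp10), against 31.3%. Dusp6 was not called with either agent, at -0.13 ± 0.12 (95% interval -0.39 to 0.13) and 0.11 ± 0.13 (95% interval -0.15 to 0.37), while it fell in Control. Spry4 rose by 0.43 ± 0.10 (edgeR adjusted p = 5.06e-04) and 0.55 ± 0.10 (edgeR adjusted p = 3.76e-05) with no call in Control. Spry2 rose by 0.50 ± 0.09 (edgeR adjusted p = 5.66e-06) and 0.76 ± 0.09 (edgeR adjusted p = 2.06e-09) while it fell in Control. With BMS-21, Spry1 was called lower on leaving out 1 h replicate 3 or 6 h replicate 2 or 3 (edgeR adjusted p from 0.0195 to 0.0485), and Dusp14 on leaving out 1 h replicate 4 or 6 h replicate 1 (edgeR adjusted p = 0.0322 and 0.0451). Of the late pair, Spry2 rose above its own 1 h levels with the agents by this test, and for Dusp6 no such rise was called. Those 1 h levels of Spry2 lay below Control. At 6 h its libraries, 17.9 to 20.8 RPM with GLP-1 and 19.0 to 22.9 RPM with BMS-21, overlapped Control at 1 h, 17.3 to 19.2 RPM. The agent libraries of Dusp6 at 6 h overlapped Control at 1 h too, and the difference between the 2 genes was not tested.

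**Figure D3:**
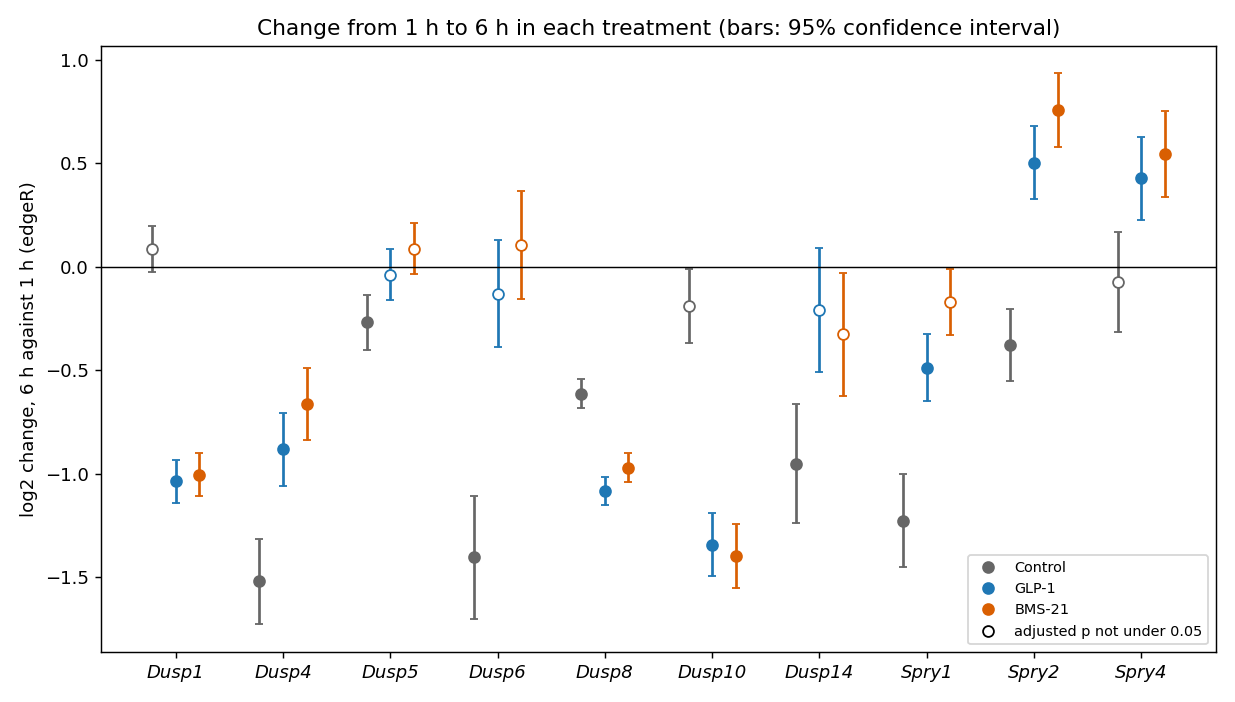
Log2 change from 1 h to 6 h (vertical axis) in Control, GLP-1 and BMS-21, from edgeR with 95% confidence intervals; open symbols have an adjusted p of 0.05 or more. Control fell by 1.41 for Dusp6 while both agents lie near 0, and Spry2 and Spry4 lie above 0 with both agents.

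Across the 6 groups, the order of the mean levels differed by member. Dusp1 ran from Control at 1 h (81.0 RPM) and Control at 6 h (86.3 RPM), which overlapped, through GLP-1 and BMS-21 at 6 h (116 and 124 RPM), which overlapped, to GLP-1 and BMS-21 at 1 h (237 and 248 RPM), which also overlapped. Dusp8 was ordered by time instead, with the 3 groups at 6 h (88.2 to 93.0 RPM) overlapping their neighbours and all below Control at 1 h (142 RPM), BMS-21 at 1 h (175 RPM) and GLP-1 at 1 h (186 RPM), none of which overlapped the next. Dusp6 had Control at 6 h alone at the bottom (10.4 RPM), below 5 groups of 24.4 to 27.4 RPM that each overlapped the next. The highest group mean was 4.43 times the lowest for Spry1, 4.18 for Dusp4, 3.07 for Dusp1 and 3.01 for Dusp10, and 1.58 for Dusp5, the smallest ratio of the 10.

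BMS-21 and GLP-1 were given at different doses, 1 µM and 100 nM, so the difference between them is that of these 2 treatments. None of the 10 members was called between them at 1 h or at 6 h with limma, against 0.0% of 12672 genes at 1 h and 0.0158% of 12629 at 6 h. DESeq2 and edgeR also called none of the members at either time. At 6 h, however, DESeq2 gave an adjusted p to only 8532 genes, so members with few reads may not have been tested by it. In the authors' deposited values for that contrast, 5 of the 10 members had no adjusted p. At an unadjusted p under 0.05 there were 3 members at 1 h, against 3.41% of genes, and 2 at 6 h, against 6.33%. Dusp8 at 1 h was the 1 member whose BMS-21 and GLP-1 libraries did not overlap, against 2.5% of genes at 1 h, at 168.6 to 180.0 RPM with BMS-21 and 183.7 to 189.3 RPM with GLP-1, a difference of -0.09 ± 0.03 (95% interval -0.16 to -0.02). At 1 h the 95% interval of the log2 difference was -0.03 to 0.17 for Dusp1, -0.25 to 0.01 for Dusp10 and -0.42 to 0.08 for Dusp6. At 6 h Spry1 had the largest difference, 0.22 ± 0.09 (95% interval 0.04 to 0.41; limma adjusted p = 0.745), followed by -0.18 ± 0.09 for Dusp10 (95% interval -0.36 to 0.00). At 6 h the 2 agents' libraries overlapped for all 10 members, while 3.82% of genes did not overlap. A missed threshold does not show that the agents act alike on these genes.

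**Figure D4:**
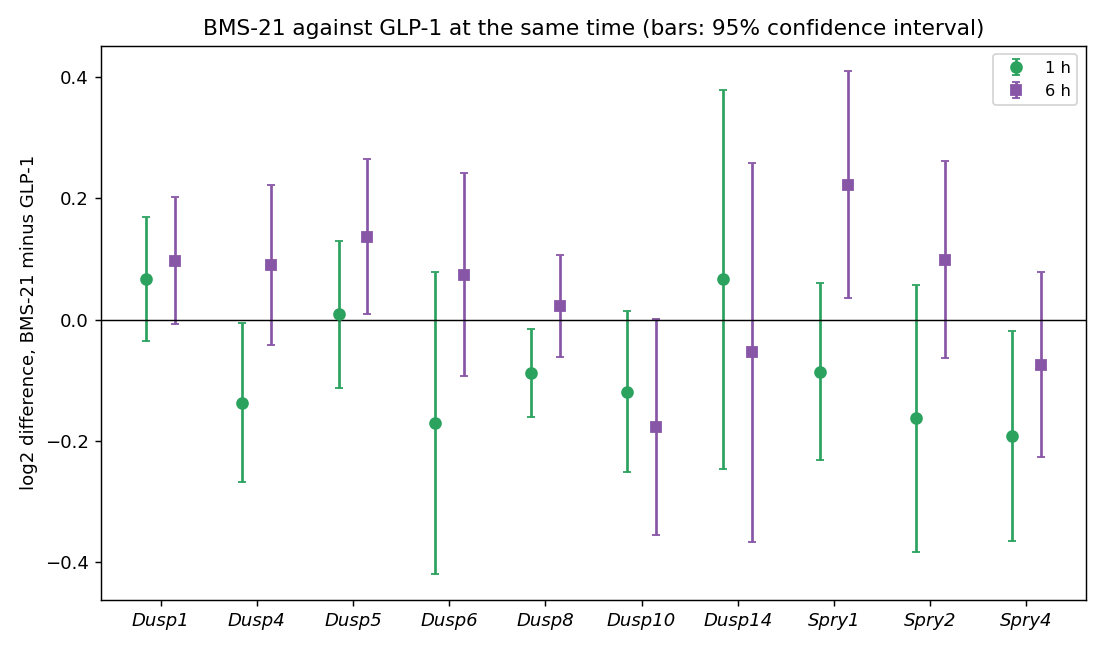
Log2 difference of BMS-21 minus GLP-1 (vertical axis) for each gene at 1 h (circles) and 6 h (squares), from limma with 95% confidence intervals. None of the 20 differences had an adjusted p under 0.05, and the widest intervals are those of Dusp14, the gene with the fewest reads.

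Libraries also varied together within groups. With each group's mean removed, Dusp6 and Spry4 correlated at r = 0.81 over the 24 libraries, Dusp4 and Dusp6 at 0.79, and Dusp4 and Spry4 at 0.66, the 3 highest of the 45 pairs of members, and Dusp8 and Spry2 were at the other end with -0.49. These are descriptions across libraries, and the labels do not say what handling the libraries shared. Dusp6 was highest in replicate 3 in each of the 6 groups. The coefficient of variation within a group ran from 1.28% (Spry1 with GLP-1 at 1 h) to 17.6% (Spry4 in Control at 1 h), with a median of 7.01% over the 60 combinations of gene and group.

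Genes whose level over the 24 libraries was most like that of a member were ranked among 9442 other genes with a symbol and a mean of at least 50 reads, by Pearson correlation of log2(RPM + 1). For Dusp1 they were Nr4a2 (r = 0.99), Fosl2 (0.99) and Sik1 (0.98), and for Dusp10 Btg2 (0.98), Tiparp (0.98) and Fosb (0.98). For Dusp8 they were Bcor (0.99), Zbtb10 (0.99) and Stk40 (0.98), and for Dusp4 Tac1 (0.98), Ywhag (0.97) and Man1b1 (0.97). Dusp6 was most like Cacna1d (0.95), Man1a1 (0.95) and Vasp (0.94), and Spry4 most like Ttpal (0.93), Slc7a8 (0.93) and Sar1a (0.93). Foxa2 (0.95) and Tagln2 (0.95) were among the 3 genes most like Spry1. The closest for Dusp5 was Ypel4 (0.91), for Spry2 Wipf2 (0.89) and for Dusp14 Nfe2l2 (0.84). The 24 points fall into 6 groups, so the correlation holds the differences between groups.

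Of the other DUSP genes, 13 were tested, from 19 listed. None was called higher with either agent at either time by limma, edgeR or DESeq2, and 1 was lower at 1 h with each. Over all genes, limma called 4.17% and 3.54% higher at 1 h with GLP-1 and BMS-21, and 16.2% and 16.8% at 6 h. It called 2.41% and 2.37% lower at 1 h, and 15.6% and 16.8% at 6 h. The members, chosen with earlier results of these data known, are not in this list. At an unadjusted p under 0.05 with limma, 0 and 1 of the 13 were higher at 1 h with GLP-1 and BMS-21, and 0 and 2 at 6 h. All-gene shares called higher at that threshold were not taken. The gene lower at 1 h was Dusp7, which encodes a cytoplasmic ERK phosphatase close to DUSP6, at -0.67 ± 0.11 with GLP-1 (limma adjusted p = 1.61e-04) and -0.60 ± 0.11 with BMS-21 (limma adjusted p = 5.19e-04). At 6 h Dusp7 was not called, at 0.10 and 0.23, and Dusp16, a JNK and p38 phosphatase, was lower with GLP-1 (-0.28 ± 0.09; limma adjusted p = 0.0193), where DESeq2 called none of the list lower. With BMS-21 at 6 h 2 were lower, Dusp19, an atypical DUSP (-0.66 ± 0.18; limma adjusted p = 0.00785), and Ssh3, a slingshot phosphatase (-0.15 ± 0.05; limma adjusted p = 0.0171), against 16.8% of all genes, and DESeq2 called 1 lower there. The median log2 change of the 13 was -0.06 with GLP-1 and -0.05 with BMS-21 at 1 h, and -0.06 and -0.11 at 6 h. In Control from 1 h to 6 h, edgeR called 7 of the 13 lower and 2 higher, against 26.9% and 26.0% of all genes.

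Of the other feedback genes of the pathway, 17 were listed and 14 or 15 tested. A single gene was higher at 1 h with each agent, against 4.17% of all genes with GLP-1 and 3.54% with BMS-21. It was Tob1, which encodes an antiproliferative protein, at 1.16 ± 0.04 and 1.17 ± 0.04. At 6 h, 3 were higher and 2 lower with GLP-1, and 7 were higher and 3 lower with BMS-21. Over all genes the shares at 6 h were 16.2% higher and 15.6% lower with GLP-1, and 16.8% each way with BMS-21. Tob1 was again the first of them, at 0.48 ± 0.05 (limma adjusted p = 1.00e-07) and 0.51 ± 0.05 (limma adjusted p = 3.59e-08). Spred3, of the Sprouty-related SPRED family, was above Control at 6 h by 0.67 ± 0.08 with GLP-1 (limma adjusted p = 1.88e-06) and 0.59 ± 0.08 with BMS-21 (limma adjusted p = 5.66e-06). It was not called at 1 h (0.02 and -0.11). Rasa3, a GTPase-activating protein of Ras and Rap, was below Control by 0.62 and 0.68 at 6 h.

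Among transcripts known to depend on ERK in many cells, 18 of 24 listed were tested at 1 h, with 8 higher and 1 lower with GLP-1 and 7 higher and 1 lower with BMS-21. Over all genes at 1 h, 4.17% were higher and 2.41% lower with GLP-1, and 3.54% and 2.37% with BMS-21. The immediate-early genes Fos and Junb, which encode AP-1 subunits, rose by 3.75 ± 0.08 and 2.47 ± 0.05 with GLP-1, and by 3.87 ± 0.08 and 2.63 ± 0.04 with BMS-21. Phlda1, which encodes a pleckstrin-homology-like protein, was the gene that fell, by 1.00 and 1.07. At 6 h, 15 were tested, with 10 higher with GLP-1, against 16.2% of all genes, and 11 with BMS-21, against 16.8%. None was lower with limma, edgeR or DESeq2, and 1 was at an unadjusted p under 0.05 with GLP-1 and 0 with BMS-21. Of those higher at 6 h, 6 of the 10 with GLP-1 and 6 of the 11 with BMS-21 were also higher at 1 h, and the other 4 and 5 were not called at 1 h. Bcl2l11 was among those 5 with BMS-21, and the list was not split by whether ERK raises or lowers a transcript. The 4 with the smallest adjusted p at 6 h were the same for each agent. Etv1, an ETS factor, differed by 0.73 ± 0.03 with GLP-1 and 0.74 ± 0.03 with BMS-21, and Epha2, an ephrin receptor, by 1.57 ± 0.15 and 1.40 ± 0.15, and neither was called at 1 h (0.06 and 0.05 for Etv1, 0.22 and 0.07 for Epha2). Ccnd1, which encodes cyclin D1, was higher at 6 h by 2.55 ± 0.09 and 2.61 ± 0.10, and Fos by 1.39 ± 0.13 and 1.63 ± 0.13, and both were higher at 1 h too. From 1 h to 6 h in Control, edgeR called 14 of the 18 lower and 1 higher, against 26.9% and 26.0% of all genes. With GLP-1 11 were lower and 4 higher between the times, against 30.0% and 29.2%, and with BMS-21 9 and 5, against 31.3% and 30.1%. A level above Control at 6 h is therefore not by itself a rise from 1 h.

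The kinases that the members restrain, and the genes around them, were mostly not called at 1 h, as most genes were not. Of 36 tested genes of the Ras-ERK cascade, none was called with either agent at 1 h by limma, edgeR or DESeq2. Over all genes at 1 h, limma called 4.17% higher and 2.41% lower with GLP-1, and 3.54% and 2.37% with BMS-21. At such shares few of 36 genes would be called. At an unadjusted p under 0.05, 2 were higher and 1 lower with GLP-1, and 3 higher and 1 lower with BMS-21. All-gene shares at that threshold were not taken. At 6 h 6 were higher and 9 lower with GLP-1, and 6 higher and 10 lower with BMS-21, where 6 of 36 is close to the all-gene shares called higher, 16.2% and 16.8%, and the shares called lower were 15.6% and 16.8%. At 6 h Rps6ka2, an RSK kinase below ERK, was below Control by 0.47 with GLP-1 and 0.51 with BMS-21. Mapk3, which encodes ERK1, was below Control by 0.37 with GLP-1 and 0.52 with BMS-21. Igf1r, the receptor for insulin-like growth factor, was above Control by 1.95 ± 0.05 and 2.25 ± 0.08. Of 19 tested genes of the JNK and p38 cascade, 3 were higher at 1 h with each agent, against 4.17% and 3.54% of all genes. None was lower by limma, edgeR or DESeq2, and 3 and 1 were at an unadjusted p under 0.05. The 3 that were higher were Mapkapk2, a kinase below p38, at 0.79 and 0.71, Jun, at 0.52 and 0.51, and Mapk8ip1, a JNK scaffold, at 0.20 and 0.15. At 6 h, 5 were higher and 5 lower with GLP-1, and 6 higher and 5 lower with BMS-21, beside the same all-gene shares, and Mapkapk2 was again the first of those higher, at 0.62 and 0.60.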

How the data were processed

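In 6 deposited tables, each comparing 2 treatments at 1 h or 6 h, the authors gave normalised read counts (a linear signal), their log2 fold change and their adjusted p-value. Values were counts divided by 1 size factor per library, and whole reads came back for 100.0% of values within 0.001. Per the submitters' processing notes the build was Rnor_5.0 and the tools included TopHat2 2.0.12, Bowtie2 2.2.3.0, SAMtools 0.1.19.0, Subread, DESeq and DESeq2 1.6.3. The TruSeq v2 kit does not mark strand, so antisense reads count toward the gene they overlap.

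Comparisons at 1 time used limma 3.58.1 on log2(value + 1), genes with a mean of at least 10 and Benjamini-Hochberg adjustment over all genes. Comparisons across times used edgeR 4.0.16 (quasi-likelihood, TMM) on the recovered reads of 24 libraries, with levels as reads per 1000000 from the same scaling. Alternatives included DESeq2 1.42.0 and R 4.3.3 was used throughout. Fits were run on data simulated with the same spread beyond counting error for all genes and no replicate effect. That checks the code and not the error rate in these libraries. The members, the gene lists and the tests were chosen with earlier results of these data known. All 10 members are described, and from each list genes that passed the test, starting with the smallest adjusted p. No 2 libraries of a group agreed within counting error (36 pairs). A gene that the likeness ranking also gave is not reported here.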

Additional observations from a re-analysis of the deposited data

Results flagged for a closer look

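In 4 of the 60 combinations of gene and group, 1 library stood apart from the other 3, with a gap to its nearest neighbour that exceeded Dixon's 95% critical share of the group's range. Chance alone gives about 1 in 20 such groups. They were Dusp4 in Control at 6 h (a low library at 11.8 RPM), Dusp6 with GLP-1 at 6 h (a high library at 28.8 RPM), Dusp6 with BMS-21 at 6 h (a high library at 30.8 RPM) and Spry4 with GLP-1 at 6 h (a high library at 39.2 RPM). The 3 high libraries are replicate 3 of their groups. The calls of these genes against Control at 6 h held with each library left out.

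The response differed between 1 h and 6 h, by the test of the difference itself in edgeR, for 9 members with GLP-1 and 10 with BMS-21. Of the 13114 genes tested, 17.3% and 21.7% were called in either direction. The BMS-21 call of Dusp14 was lost with DESeq2 (adjusted p = 0.0833), with no filter (edgeR adjusted p = 0.0522) and on leaving out some libraries. On the log2 scale the GLP-1 response changed by -1.12 for Dusp1, 0.64 for Dusp4, 1.28 for Dusp6, -0.47 for Dusp8, -1.15 for Dusp10, 0.74 for Dusp14, 0.74 for Spry1, 0.88 for Spry2 and 0.50 for Spry4. The BMS-21 response changed by -1.09 for Dusp1, 0.86 for Dusp4, 0.36 for Dusp5, 1.51 for Dusp6, -0.36 for Dusp8, -1.21 for Dusp10, 0.63 for Dusp14, 1.06 for Spry1, 1.13 for Spry2 and 0.62 for Spry4. Both responses use the same Control libraries, so the values of the 2 agents are not independent of each other.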

How the results depend on the processing

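Over 2156 recomputed values of the 110 member results, the call changed in 60, of which 37 came from leaving out 1 library, and 16 results were touched; the cause was not tested. The members called lower with GLP-1 at 1 h went from 2 to 1 with DESeq2, with no filter and with replicates 1 and 2 alone, and ranged from 1 to 2 when each library was left out. With GLP-1 at 6 h, 1 member (Dusp8) was called lower under library total scaling and with replicates 1 and 2 alone. In Control from 1 h to 6 h, 1 member (Dusp1) was called higher with replicates 3 and 4 alone. Whether replicate numbers pair the samples was checked by correlating deviations from group means, required to exceed 0.1 for all 24 same-numbered pairs. The check was run in 3 versions. On the scale and genes of the tests (mean of at least 10) the correlations were 0.0738 to 0.242, so the numbers were not taken as pairs; the RPM scale gave 0.09995 to 0.315, and a mean of at least 50, run after that decision, gave 0.119 to 0.406, so the outcome depends on the filter and scale. In each version 23 of 24 pairs correlated best with their own number, a hint from the data. The submitters' sample numbers also run in order of replicate, with every group in each run. Whether the samples of a run shared a culture is not stated. With a replicate block, 2 members were called lower with BMS-21 at 1 h, Dusp14 (adjusted p = 0.0412) being added, and calls were gained by Dusp5 in the change of the GLP-1 response (0.0285), Dusp10 in Control (0.0440) and Spry1 with BMS-21 between the times (0.0470); no member call was lost. The block raised the genes called against Control at 1 h from 6.58% to 11.9% with GLP-1 and from 5.91% to 12.2% with BMS-21. Between BMS-21 and GLP-1 it raised them from 0.0% to 0.671% at 1 h and from 0.0158% to 1.72% at 6 h. No member gained a call between the agents. Dusp14, at 27 to 70 reads, is the member depth limits most.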
